A study of Anolis sagrei with 15 samples.

Results

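The central region of the posterior globe, where the eye of an anole forms its central fovea, was compared with the nasal region, where no fovea forms, in embryos of the brown anole *Anolis sagrei* at Sanger stage 16.5. The comparison takes every library that the labels name central or nasal, 10 of the 15 libraries of the series, with 5 of each region, and all 20235 gene models of the count table. The other 5 libraries are from the temporal region and served only to estimate the spread between libraries and the effect of the replicate number. The embryos came from wild-caught parents and received no treatment, and per the study's methods tissue of 3 embryos of mixed sex was pooled. The central and nasal libraries therefore share species, stage and origin and differ in the region that was cut out. The labels name the regions but give no fovea, and no gene is a fixed marker of a fovea, so the label could not be checked beyond the tissue. Dissected posterior globe holds retina and can also hold pigment epithelium, choroid, sclera and the head of the optic nerve. Libraries were pools of tissue and nothing in the labels says that they came from separate sets of embryos, so p-values measure the spread between these libraries, which may be technical.

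A fovea is a pit in the retina over which cones are packed tightly and vision is sharpest. Anoles hunt by sight and carry a deep central fovea and a shallower temporal fovea in each eye. In vertebrate eyes, retinoic acid, fibroblast growth factors and bone morphogenetic proteins divide the optic cup into nasal, temporal, dorsal and ventral parts, and in the chick a zone with little retinoic acid, kept low by CYP26 enzymes that break it down, precedes the high-acuity area. Retinal neurons and glia arise from dividing progenitors, and the central retina differentiates ahead of the periphery.

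Counted reads ranged from 15712525 to 27035312 in central libraries and from 18365334 to 25166494 in nasal libraries. Central replicate 4 stood apart. It listed 14994 gene models with at least 1 read, where the rest of the central libraries listed 17603 to 18617 and nasal libraries 17643 to 18369, and results that it changes are given below with and without it. The retinal factors RAX, SIX6, PAX6, POU4F2 and TFAP2A were read in all 10 libraries, so the tissue held retina in both regions. No gene model analysed here carried the symbol CRX. Values are CPM (reads per 1000000 counted reads after scaling of library totals), given as mean ± SD over 5 libraries or as the 5 values in the order of replicates 1 to 5. They are not corrected for gene length, so levels are compared between regions and not between genes. Changes are log2 fold changes, central minus nasal, with a standard error (SE), and a gene model is called where its adjusted p is under 0.05 in edgeR's quasi-likelihood test with the replicate number as a block. Symbols are the names that the authors gave to gene models, and a symbol can stand on several models, which are then told apart by identifier.

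Expression differed widely between the regions. Of 15910 gene models tested, 4438 were called, which is 27.9%. In the central region 2275 (14.3%) were higher and 2163 (13.6%) lower, and these shares are the background against which the gene lists below are read. The larger changes lay on the side of higher expression in central, with 620 gene models more than 2-fold higher and 290 more than 2-fold lower. The median log2 fold change over all gene models tested was -0.05. In a fit without the block 2925 gene models were called, and 5095 were called without central replicate 4.

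The largest rise in central, among gene models ranked as given below, was that of CYP26C1 (ANOSAT007723), an enzyme that breaks down retinoic acid, followed by PAX2 (ANOSAT008035), a transcription factor of the optic stalk, the optic nerve head and ventral optic cup. CYP26C1 was read at 51.2, 59.9, 40.6, 41.0 and 28.4 CPM in central libraries, against 0.107, 0.167, 0.0985, 0.0530 and 0.238 CPM in nasal libraries. PAX2 stood at 22.7, 24.7, 31.1, 29.0 and 37.7 CPM in central and at 0.215, 0.0835, 0.148, 0.318 and 0.159 CPM in nasal libraries. For both genes every central library lay far above every nasal library, and the nasal values rest on 15 reads of CYP26C1 and 19 reads of PAX2 over the 5 libraries. Their log2 fold changes were 8.23 (SE 0.278, edgeR adjusted p = 3.1e-11) and 7.31 (SE 0.263, edgeR adjusted p = 5.3e-11).

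Other large rises were found for PMP2 (ANOSAT011228), a fatty acid binding protein of myelin and glia, MGP (ANOSAT012150), a matrix protein that holds back calcification, and ASL (ANOSAT019903), the argininosuccinate lyase gene whose relative is the delta-crystallin of bird and reptile lenses. PMP2 averaged 169 ± 93.1 CPM in central and 1.26 ± 0.593 CPM in nasal libraries, a log2 fold change of 7.0 (SE 0.386). MGP was at 13.2 ± 4.33 CPM in central and 0.114 ± 0.141 CPM in nasal libraries, where 12 reads were counted in all (log2 fold change 6.93, SE 0.446). The T-box factor gene TBX18 (ANOSAT002191) averaged 11.7 ± 6.0 CPM in central and 0.180 ± 0.0791 CPM in nasal libraries. The list of 12 largest rises is completed by DIO2, SST, HK2 and GPR151, described below with their classes, and by UBAP1L and LOC100567421. UBAP1L averaged 8.70 ± 0.966 CPM in central and 0.320 ± 0.315 CPM in nasal libraries, and LOC100567421 6.49 ± 2.32 CPM in central and 0.0452 ± 0.0301 CPM in nasal libraries. Only called gene models whose groups do not overlap and whose mean reached 5 CPM in the higher region were ranked, so the gap between the groups is a property of this choice, here and for the falls.

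The largest falls include genes of transcription factors, whose share over all gene models was not counted. SOX12 (ANOSAT009388) and NR2E3 (ANOSAT018897) had log2 fold changes of -6.10 and -5.23 and are described with their classes. AHRR, SOX4, INHBA, GRIK2, ZIC1 and PDE6G, also among the largest falls, are given there too. CFP, which encodes the complement factor properdin, averaged 0.516 ± 0.310 CPM in central and 5.88 ± 1.82 CPM in nasal libraries. CLHC1 averaged 3.21 ± 1.79 CPM in central and 21.2 ± 6.33 CPM in nasal libraries.

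**Figure D1:**
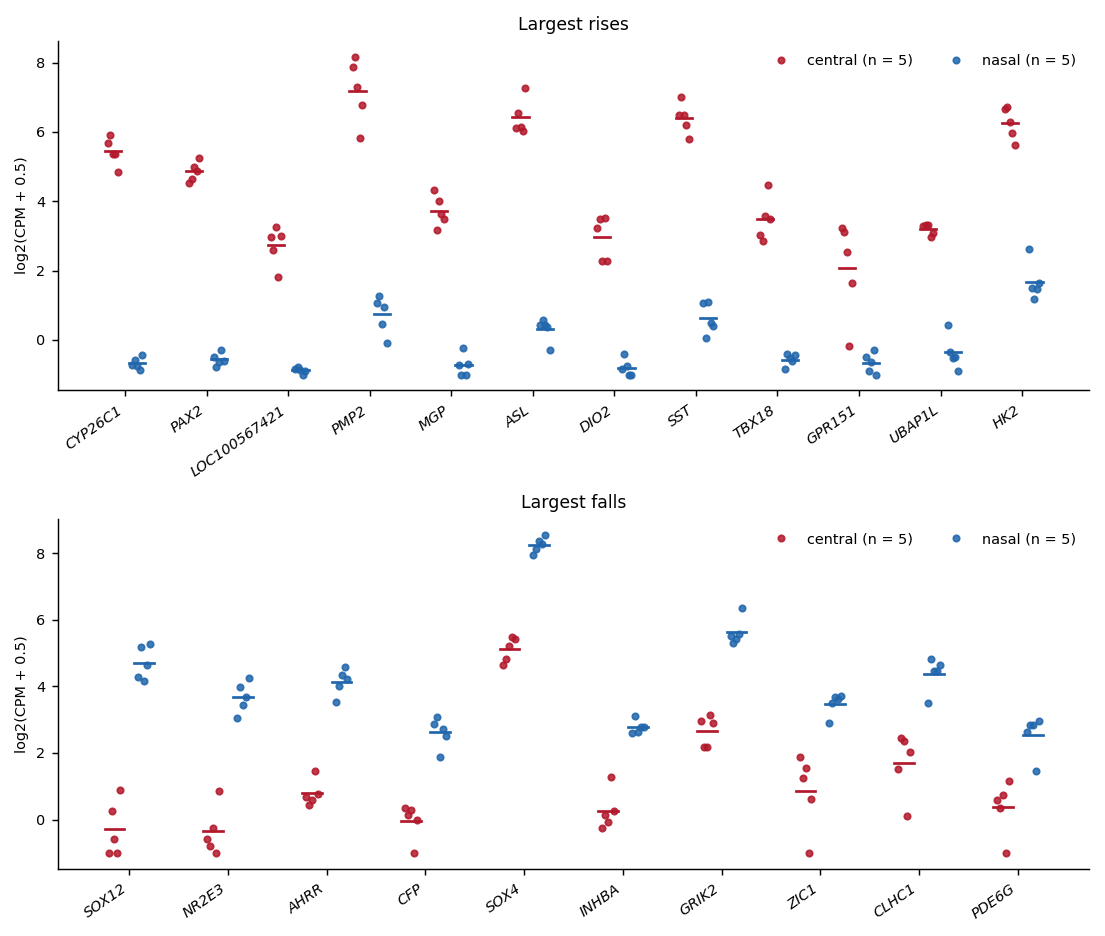
Each point is 1 library, with the level on the y axis as log2 of CPM plus 0.5, for the genes named for the largest rises (upper panel) and falls (lower panel) in central (red, left of each pair) against nasal (blue), and bars are means of the log2 values. CYP26C1 and PAX2 lie near the floor of the axis in every nasal library, and SOX12 is at 1.37 CPM or lower in every central library. No pair of groups overlaps, because the ranking took only gene models without overlap.

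The gene lists that follow differed in how often and in which direction their members were called. Among the lists of 10 or more tested members in the plot of list shares, the shares called higher in central ranged from none of 96 ribosomal protein genes to 32 of 45 genes of glycolysis and the hypoxia response. Bulk libraries do not separate a change in the number of cells of a type from a change in RNA per cell, and for every gene below fewer cells of a type and less RNA per cell cannot be told apart.

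**Figure D2:**
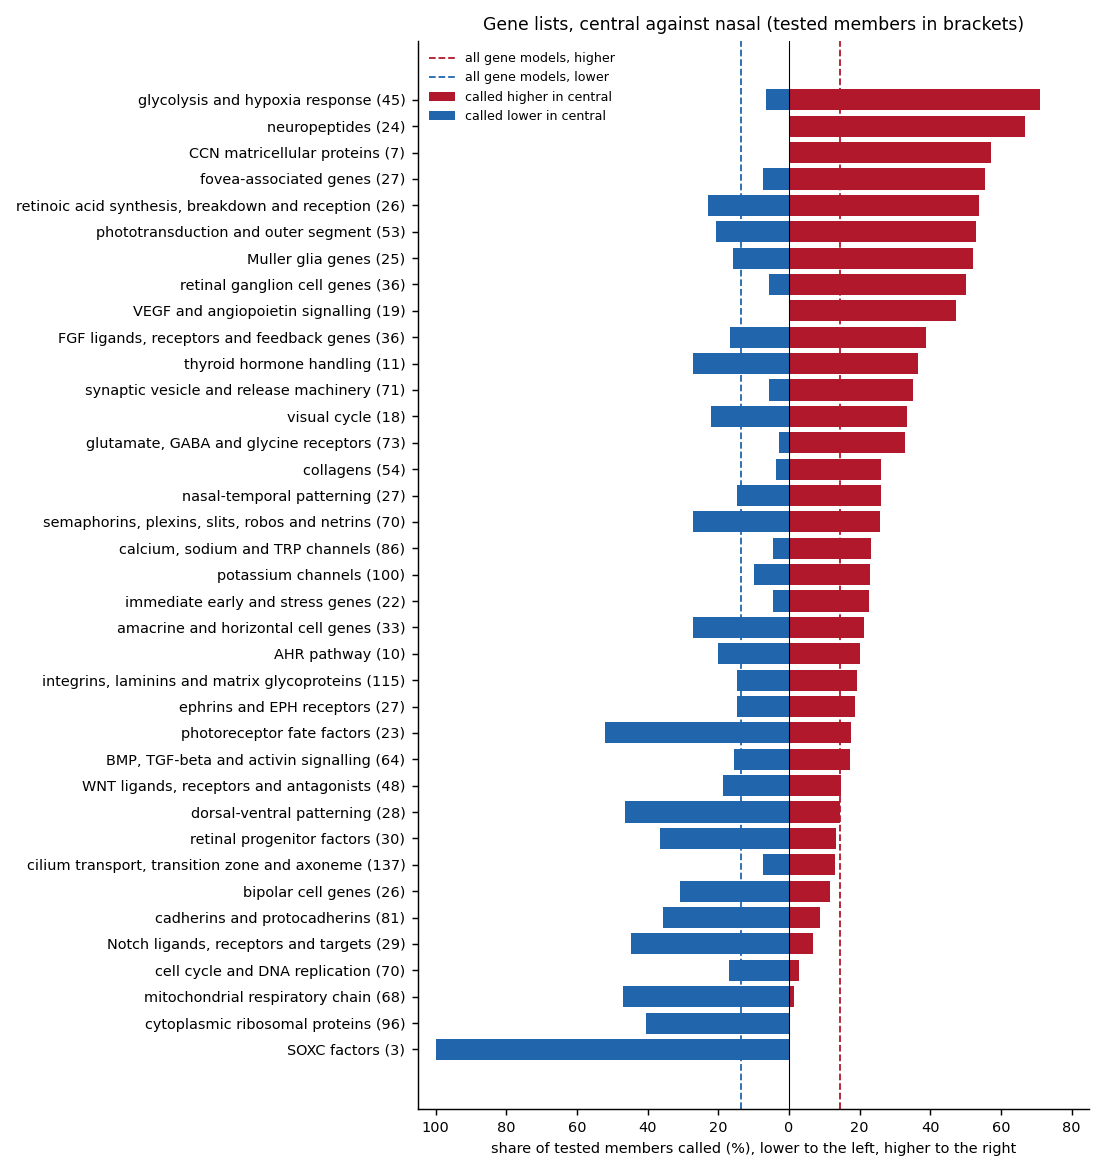
Bars give the share of each list's tested members called higher (red, to the right) or lower (blue, to the left) in central against nasal, in percent on the x axis, and dashed lines give the same shares over all 15910 gene models. Lists are ordered by the share called higher, with glycolysis and neuropeptides at the top and SOXC factors, ribosomal proteins and the respiratory chain at the bottom.

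The retinoic acid genes changed in both directions. Of 26 tested members of the list, 14 were higher and 6 lower in central, so 76.9% were called, with a median log2 fold change of 0.44. The members that rose included the breakdown enzyme CYP26C1, proteins that bind retinoids in cells and blood, and receptors, while 3 models of retinaldehyde dehydrogenases, which make retinoic acid, fell. The cellular retinoic acid binding protein gene CRABP1 (ANOSAT019021) was read at 269, 257, 176, 120 and 156 CPM in central libraries, against 41.5, 34.4, 30.3, 19.2 and 34.0 CPM in nasal libraries. The lowest central library lay well above the highest nasal one, with a log2 fold change of 2.59 (SE 0.116, edgeR adjusted p = 3.9e-10). The neighbouring model CRABP2 (ANOSAT019022) had the same log2 fold change, 2.59 (SE 0.144), and reads of similar genes could be split between such neighbours, whereas another model of the family, CRABP2 (ANOSAT020927), averaged 5.97 ± 2.0 CPM in central and 4.2 ± 1.28 CPM in nasal libraries and was not called (edgeR adjusted p = 0.098).

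Genes of retinol binding proteins rose too. RBP5, a cellular binding protein, averaged 71.5 ± 13.1 CPM in central and 21.5 ± 3.92 CPM in nasal libraries. RBP4, which carries retinol in blood, averaged 1682 ± 231 CPM in central and 1185 ± 76.6 CPM in nasal libraries. STRA6, the receptor for RBP4, rose by 1.05 on the log2 scale on the model ANOSAT019077, and the model ANOSAT004740 was not called, at 26.7 ± 8.18 CPM in central and 20.4 ± 2.80 CPM in nasal libraries (edgeR adjusted p = 0.072). Also higher were the nuclear receptors RXRA and RARA, by 0.79 and 0.38. RARB, a receptor whose gene is itself induced by retinoic acid in many tissues, fell by 0.58 (edgeR adjusted p = 0.0037).

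Several enzymes that turn retinol and retinal into retinoic acid were lower in central. ALDH1A1 (ANOSAT003857), the dehydrogenase of dorsal retina in chick and mouse, was read at 9.52, 12, 8.82, 11.4 and 11 CPM in central libraries, against 15.6, 18.6, 24.3, 29.2 and 27.4 CPM in nasal libraries. All central libraries lay below all nasal ones (log2 fold change -1.15, SE 0.286, edgeR adjusted p = 0.0069), but the call was lost without central replicate 4. The ALDH1A3 models, for the dehydrogenase of ventral retina, had log2 fold changes of -0.75 (aldh1a3, ANOSAT018958, edgeR adjusted p = 0.0049) and -1.44 (ALDH1A3, ANOSAT018960, edgeR adjusted p = 0.045), the second at about 1 CPM and not called under 10 of 19 alternatives. The retinol dehydrogenase RDH10 had models that differed in opposite directions. The model ANOSAT009576 was lower, at 7.57 ± 1.38 CPM in central and 12.9 ± 1.51 CPM in nasal libraries (log2 fold change -0.78). The model with more reads, ANOSAT011197, was higher, at 128 ± 31.0 CPM in central and 102 ± 10.8 CPM in nasal libraries (log2 fold change 0.30, edgeR adjusted p = 0.028). The call of this second model was lost under 7 of 19 alternatives. Another enzyme of breakdown, CYP26B1, moved opposite to CYP26C1, at 3.98 ± 1.57 CPM in central and 7.15 ± 2.49 CPM in nasal libraries (log2 fold change -0.87, edgeR adjusted p = 0.0084), a call lost without the block. ALDH1A2 (ANOSAT019092), at 1.25 ± 0.822 CPM in central and 0.551 ± 0.329 CPM in nasal libraries, and the retinal reductase DHRS3, at 3.79 ± 2.62 CPM in central and 5.69 ± 1.59 CPM in nasal libraries, were not called.

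Genes that pattern the nasal retina were also compared. HMX1, a factor of nasal retina, differed little, at 164 ± 17.6 CPM in central and 196 ± 22.1 CPM in nasal libraries (log2 fold change -0.25, edgeR adjusted p = 0.013), and was not called without the block or without central replicate 1. MAB21L1 averaged 21.4 ± 5.60 CPM in central and 38.4 ± 7.98 CPM in nasal libraries.

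Receptors of the EPHA family read ephrin-A gradients and guide retinal axons to their targets by position, and several of them rose in central. EPHA3 (ANOSAT008719) was read at 37.7, 37.3, 38.0, 44.2 and 41.2 CPM in central libraries, against 6.23, 9.31, 10.3, 9.74 and 7.94 CPM in nasal libraries, and the groups lay far apart. Its log2 fold change was 2.2 (SE 0.115, edgeR adjusted p = 2e-09), that of the neighbouring model epha3 (ANOSAT008720) 2.55, that of EPHA6 (ANOSAT008714) 1.26 and that of EPHA7 0.80. EPHA4 differed little (log2 fold change 0.21, edgeR adjusted p = 0.027), a call lost under 8 of 19 alternatives. EPHA5 was not called, at 70.7 ± 12.6 CPM in central and 74.4 ± 8.06 CPM in nasal libraries (edgeR adjusted p = 0.61). BOC, a hedgehog co-receptor of ganglion cells, rose by 1.12. Over the whole nasal-temporal list 7 of 27 members were higher and 4 lower (40.7% called).

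Dorsal and ventral patterning genes were called lower more often than higher in central, 13 against 4 of 28 (60.7% called, median log2 fold change -0.32). VAX2 (ANOSAT013436), a homeobox factor of ventral retina, was read at 2.06, 2.67, 3.33, 4.94 and 2.15 CPM in central libraries, against 19.3, 11.1, 10.6, 5.56 and 9.13 CPM in nasal libraries. The regions did not overlap, although nasal replicate 4 came close to central replicate 4 (log2 fold change -1.90, SE 0.326, edgeR adjusted p = 0.00039). Among the EPHB receptors, which are high in ventral retina in chick and mouse, some models were lower and others were not called. EPHB2 (ANOSAT021186) averaged 71.3 ± 14.8 CPM in central and 123 ± 23.6 CPM in nasal libraries, and EPHB3 26.3 ± 7.65 CPM in central and 43.6 ± 9.16 CPM in nasal libraries. The EPHB2 model with more reads (ANOSAT004086) was not called, at 226 ± 22.3 CPM in central and 252 ± 27 CPM in nasal libraries (edgeR adjusted p = 0.058). EPHB1 was not called, at 62.1 ± 7.90 CPM in central and 61.9 ± 5.76 CPM in nasal libraries (edgeR adjusted p = 0.98).

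The members of the list that were higher include the ligand gene BMP2, which rose by 1.71 (29.9 ± 5.62 CPM in central, 8.97 ± 0.694 CPM in nasal libraries), and the decoy receptor gene BAMBI, which rose by 0.81. Of factors tied to dorsal retina, TBX2 fell by 0.34 (374 ± 58.2 CPM in central, 472 ± 60.7 CPM in nasal libraries, edgeR adjusted p = 0.0013) and the dorsal ligand EFNB2 by 0.57. TBX20, read at 1.09 ± 0.747 CPM in central and 3.5 ± 1.22 CPM in nasal libraries, fell by 1.87. TBX5 was not called, at 16.9 ± 3.14 CPM in central and 13.8 ± 6.25 CPM in nasal libraries (edgeR adjusted p = 0.43), nor was BMP4, at 12.2 ± 2.22 CPM in central and 11.3 ± 4.28 CPM in nasal libraries (edgeR adjusted p = 0.66). The orphan receptor NR2F1 was lower in central on both models tested that are named here (ANOSAT020690, log2 fold change -2.86, and ANOSAT003650, log2 fold change -0.69).

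ZIC1, ZIC2 and ZIC4, which encode zinc finger factors of early neural tissue, were lower in central. ZIC1 averaged 1.70 ± 1.23 CPM in central and 10.9 ± 2.28 CPM in nasal libraries (log2 fold change -2.82), and ZIC2 0.141 ± 0.151 CPM in central and 3.5 ± 0.957 CPM in nasal libraries (log2 fold change -4.70). ZIC4, named after its values were seen, averaged 0.308 ± 0.298 CPM in central and 1.76 ± 0.741 CPM in nasal libraries (log2 fold change -2.58, edgeR adjusted p = 0.015), and its call was lost under 3 of 19 alternatives, among them the fit of the central and nasal libraries alone.

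The list of genes tied to the fovea or the high-acuity area in other animals was written with earlier results of these data known, so its direction is no independent evidence. Of its 27 tested members, 15 were higher and 2 lower in central (63.0% called, median log2 fold change 0.71), and without central replicate 4 the counts were 16 and 2. Its lower members include AHRR, a repressor of the aryl hydrocarbon receptor. CYP1B1 (ANOSAT002696), a cytochrome P450 that is a target of that receptor and can also oxidise retinoids, was read at 195, 158, 221, 294 and 233 CPM in central libraries, against 43.3, 45.5, 42.1, 33.1 and 21.2 CPM in nasal libraries. AHRR (ANOSAT014691) ran the other way, at 1.11, 0.853, 0.999, 2.24 and 1.22 CPM in central and 11.1, 15.6, 19.9, 23.4 and 18.2 CPM in nasal libraries. The log2 fold changes were 2.58 (SE 0.206, edgeR adjusted p = 1.7e-07) for CYP1B1 and -3.80 (SE 0.225, edgeR adjusted p = 7e-09) for AHRR. TIPARP, another receptor target and repressor, fell by 1.99 (8.72 ± 1.32 CPM in central, 34.4 ± 3.69 CPM in nasal libraries), and the receptor gene AHR rose by 0.61. Genes that the same receptor can induce thus differed in opposite directions, and of the 10 tested members of its pathway these 4 were the ones called (40.0%).

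Thyroid hormone genes were led by DIO2 (ANOSAT000342), the deiodinase that makes the active hormone. It was read at 8.91, 10.6, 4.38, 10.9 and 4.30 CPM in central libraries, against 0.0537, 0.251, 0.0985, 0 and 0 CPM in nasal libraries, which held 9 reads of it in all. The log2 fold change was 6.45 (SE 0.483, edgeR adjusted p = 8.9e-08). The receptor THRB, needed in the mouse for cones with long-wavelength opsin, averaged 378 ± 37.7 CPM in central and 251 ± 26.6 CPM in nasal libraries, and the hormone importer SLCO1C1 16.5 ± 5.97 CPM in central and 8.47 ± 1.96 CPM in nasal libraries. The receptor THRA fell by 0.26 (161 ± 30.5 CPM in central, 190 ± 9.94 CPM in nasal libraries, edgeR adjusted p = 0.026), a call lost under 7 of 19 alternatives, among them the fits without the block and without central replicate 4. The other members that fell bind the hormone. TTR (ANOSAT011075), a carrier protein made by pigment epithelium, was read at 73.1, 78.9, 73.4, 59.4 and 112 CPM in central and 315, 299, 245, 245 and 279 CPM in nasal libraries (log2 fold change -1.81, SE 0.131, edgeR adjusted p = 6e-08). CRYM, a cytosolic binding protein, fell by 1.51. In all, 4 of 11 tested members were higher and 3 lower (63.6% called), and without central replicate 4 the lower count was 2.

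Angiogenic signalling genes were called in 1 direction. Of 19 tested members 9 were higher in central and 0 lower (47.4% called, median log2 fold change 0.76, and 0.38 without central replicate 4). VEGFA (ANOSAT002723) was read at 240, 238, 295, 248 and 298 CPM in central libraries, against 95.8, 137, 152, 159 and 113 CPM in nasal libraries, with no overlap and a log2 fold change of 1.01 (SE 0.127, edgeR adjusted p = 2e-05). VEGFB rose by 0.98, and NRP2, a receptor for VEGF and class 3 semaphorins, by 1.46 (91.2 ± 19.3 CPM in central, 32.9 ± 4.54 CPM in nasal libraries). The receptor genes KDR (ANOSAT019569) and FLT1 (ANOSAT019567) rose by 0.76 and 0.80, and ANGPT2 by 0.84 (edgeR adjusted p = 0.017), with the ANGPT2 call lost under 4 of 19 alternatives and the FLT1 call without the block. Another FLT1 model, ANOSAT008868, chosen after its values were seen, rose by 1.05. The KDR model with the most reads, ANOSAT012859, was not called, at 134 ± 18.9 CPM in central and 134 ± 4.68 CPM in nasal libraries (edgeR adjusted p = 0.92). Markers of endothelium and pericytes moved in the same direction, 7 of 22 higher and 1 lower (36.4% called). This list also holds KDR and FLT1, so its counts share gene models with those above and are not separate evidence. The summed level of these markers was 272 to 469 CPM in central and 264 to 293 CPM in nasal libraries, with the top value in central replicate 4. The sum includes the KDR model ANOSAT012859. The part of endothelium and pericytes in the rise of the receptor genes was not tested.

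Fibroblast growth factor genes were called more often higher than lower in central, 14 against 6 of 36 tested (55.6% called). FGF8 (ANOSAT007480), which in the chick is expressed in the high-acuity area of the retina, was low and read mainly in the central libraries, at 2.23, 1.22, 0.666, 2.63 and 1.22 CPM, against 0, 0.167, 0.0492, 0 and 0.0794 CPM in nasal libraries. There were 151 central and 7 nasal reads, and the log2 fold change was 4.55 (SE 0.854, edgeR adjusted p = 0.00084). FGF9 averaged 42.1 ± 5.92 CPM in central and 16.7 ± 2.74 CPM in nasal libraries (log2 fold change 1.33). ETV5, a transcription factor that FGF signalling induces, rose by 0.82, whereas DUSP6, another induced gene, fell by 0.48. The receptor gene FGFR1 fell by 0.86 and FGFRL1, a receptor without a kinase, by 1.03.

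Among genes of the BMP, TGF-beta and activin families 11 of 64 were higher and 10 lower (32.8% called), close to the background, but the members with the largest changes concerned activin. FST (ANOSAT003492), the secreted antagonist follistatin, was read at 306, 244, 280, 275 and 293 CPM in central libraries, against 26.2, 30.5, 26.5, 37.8 and 26.1 CPM in nasal libraries. The activin subunit gene INHBA (ANOSAT014742) was read at 0.334, 0.593, 0.444, 1.92 and 0.684 CPM in central and at 5.53, 8.06, 5.71, 6.30 and 6.39 CPM in nasal libraries. The antagonist was thus high and the ligand low in every central library, with log2 fold changes of 3.26 (SE 0.112, edgeR adjusted p = 3.1e-11) and -3.10 (SE 0.316, edgeR adjusted p = 2.4e-06). The second subunit gene INHBB fell by 1.57, and the type I receptor gene ACVR1B by 0.67. BMP2 (ANOSAT001912) and BAMBI rose, as given above, and BMP7 rose by 0.75.

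WNT genes as a class stayed near the background, with 7 of 48 higher and 9 lower (33.3% called). The secreted inhibitors FRZB and SFRP1 rose by 1.72 and 1.32, while the ligand gene WNT5B fell by 2.42 and its receptor gene ROR2 by 1.78, both from low nasal levels of 3.43 ± 0.561 and 4.97 ± 0.584 CPM.

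The SOXC factors SOX4, SOX11 and SOX12, which act in newly formed neurons, all fell. SOX4 (ANOSAT010914) was read at 24.5, 27.7, 36.8, 44.5 and 42.7 CPM in central libraries, against 247, 281, 329, 312 and 374 CPM in nasal libraries (log2 fold change -3.14, SE 0.159, edgeR adjusted p = 1.5e-09). SOX12 was at 0, 0.705, 0.166, 0 and 1.37 CPM in central and 18.9, 35.8, 17.5, 24.3 and 38.0 CPM in nasal libraries, and SOX11 averaged 39.4 ± 10.9 CPM in central and 81.9 ± 19.5 CPM in nasal libraries. All central values of SOX4 and SOX12 lay below all nasal ones, as the ranking of the largest falls required.

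Notch genes were called lower in 13 of 29 cases and higher in 2 (51.7% called, median log2 fold change -0.45), and without the block 8 were lower. LFNG, a modifier of the receptor, averaged 7.17 ± 3.34 CPM in central and 20.8 ± 2.74 CPM in nasal libraries (log2 fold change -1.61, and -1.30 without central replicate 4). The ligand gene DLL1, marking cells that leave the cycle, fell by 1.06. HEY2, a target factor, rose by 1.19. Retinal progenitor factors were lower in 11 of 30 cases and higher in 4 (50% called), a list that contains ZIC1 and ZIC2. SOX2 and SOX8, which glia also express, rose by 0.51 and 0.88. Without central replicate 4 the higher count among progenitor factors was 7.

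Cell cycle and replication genes were called no more often than the background, 12 of 70 lower and 2 higher (20% called), but their median log2 fold change was -0.32. SMC4, a condensin subunit, fell by 1.12 and the replication clamp PCNA by 0.54. CDC6, a licensing factor, and E2F8 were the 2 that rose, by 1.5 and 1.14, and HMGB2, the member with the most reads, was not called (477 ± 40.2 CPM in central, 533 ± 27.8 CPM in nasal libraries, edgeR adjusted p = 0.065).

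Photoreceptor genes were called often and in both directions. Anole retinas are dominated by cones, which carry several opsins tuned to different wavelengths, and rods are few. In the list of phototransduction and outer segment genes 28 of 53 tested members were higher and 11 lower in central (73.6% called, median log2 fold change 0.29). The cone opsin gene RH2 (ANOSAT009929) was read at 439, 543, 497, 573 and 512 CPM in central libraries, against 84.7, 137, 116, 137 and 118 CPM in nasal libraries, and the lowest central library lay well above the highest nasal one. The long-wavelength opsin OPN1LW (ANOSAT004388) averaged 1340 ± 115 CPM in central and 661 ± 57.0 CPM in nasal libraries. Their log2 fold changes were 2.12 (SE 0.0790, edgeR adjusted p = 7.2e-11) and 1.02 (SE 0.0622, edgeR adjusted p = 9.4e-09).

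GUCA1A (ANOSAT009808), a guanylate cyclase activator that restores the dark state of photoreceptors, showed the largest rise of the list, at 33.2, 34.5, 32.1, 36.0 and 35.5 CPM in central and 2.52, 1.59, 2.07, 1.43 and 1.19 CPM in nasal libraries (log2 fold change 4.31, SE 0.187, edgeR adjusted p = 3.4e-10). Another model with this symbol, GUCA1A (ANOSAT011655), chosen after its values were seen, averaged 6.13 ± 1.14 CPM in central and 9.94 ± 4.39 CPM in nasal libraries, and its call was lost under 8 of 19 alternatives. RCVRN, the calcium sensor recoverin, was higher in central, at 7035 ± 790 CPM in central and 4982 ± 775 CPM in nasal libraries.

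Rod and cone genes were set side by side after the values were seen, from lists of genes tied to either type in other vertebrates. Not every listed gene is specific to its type. Of 16 cone gene models tested 12 were higher in central and 0 lower (75.0% called), with a summed level of 7949 to 8644 CPM in central and 4457 to 5063 CPM in nasal libraries. They include OPN1SW (log2 fold change 1.74), the model named OPSIN (1.59), 3 neighbouring models of cone arrestin (1.35 and 1.14 for those named arr3, 1.18 for ARR3), cone transducin GNAT2 (0.71) and PDE6H (0.59). Of 10 rod gene models 5 were lower and 2 higher (70.0% called), with summed levels that overlapped, at 290 to 331 CPM in central and 267 to 360 CPM in nasal libraries. Most of these sums came from GNB1, which was not called, and GRK1, which was called higher. GNB1 averaged 160 CPM in central and 164 CPM in nasal libraries, and GRK1 103 and 74.1 CPM. The sums therefore say little about the rod genes with few reads. Rod transducin GNAT1 fell by 1.97, a call lost without the block, and the rod phosphodiesterase gene PDE6G by 2.68. PDE6B had a log2 fold change of -1.19 (edgeR adjusted p = 0.048), not called under 11 of 19 alternatives. SAG, the rod arrestin, ran against these, at 22.1 ± 4.30 CPM in central and 7.68 ± 1.77 CPM in nasal libraries.

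Factors that direct photoreceptor fate were lower more often than higher, 12 against 4 of 23 (69.6% called, median log2 fold change -0.54). NR2E3, which represses cone genes in rods, was read at 0.167, 0.0742, 0.333, 0 and 1.32 CPM in central libraries, against 7.84, 15.4, 10.3, 12.4 and 18.5 CPM in nasal libraries (log2 fold change -5.23, SE 0.478, edgeR adjusted p = 7.2e-07). The basic helix-loop-helix factors of young photoreceptors NEUROD1 and NEUROD4 fell by 1.26 and 0.91, SALL3 by 0.93, and both models of OTX2 by 0.54 and 0.62. PRDM1, which stabilises photoreceptor fate against bipolar fate in the mouse, rose by 1.04, MEF2C by 0.63 and the nuclear receptor NR1D1 by 1.24.

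Genes of the matrix between photoreceptors and of the outer segment margin included some that fell. IMPG2 (ANOSAT008767), a proteoglycan of that matrix, was read at 222, 214, 225, 381 and 379 CPM in central libraries, against 558, 1026, 884, 1105 and 1363 CPM in nasal libraries (log2 fold change -1.80, SE 0.135, edgeR adjusted p = 8.9e-08). A second IMPG2 model (ANOSAT017175), chosen after its values were seen, was not called, at 23.0 ± 5.18 CPM in central and 24.0 ± 2.30 CPM in nasal libraries (edgeR adjusted p = 0.63). IMPG1 fell by 0.45, EYS (ANOSAT002132) by 1.03 and the retinoid transporter ABCA4 (ANOSAT010377) by 0.43.

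**Figure D3:**
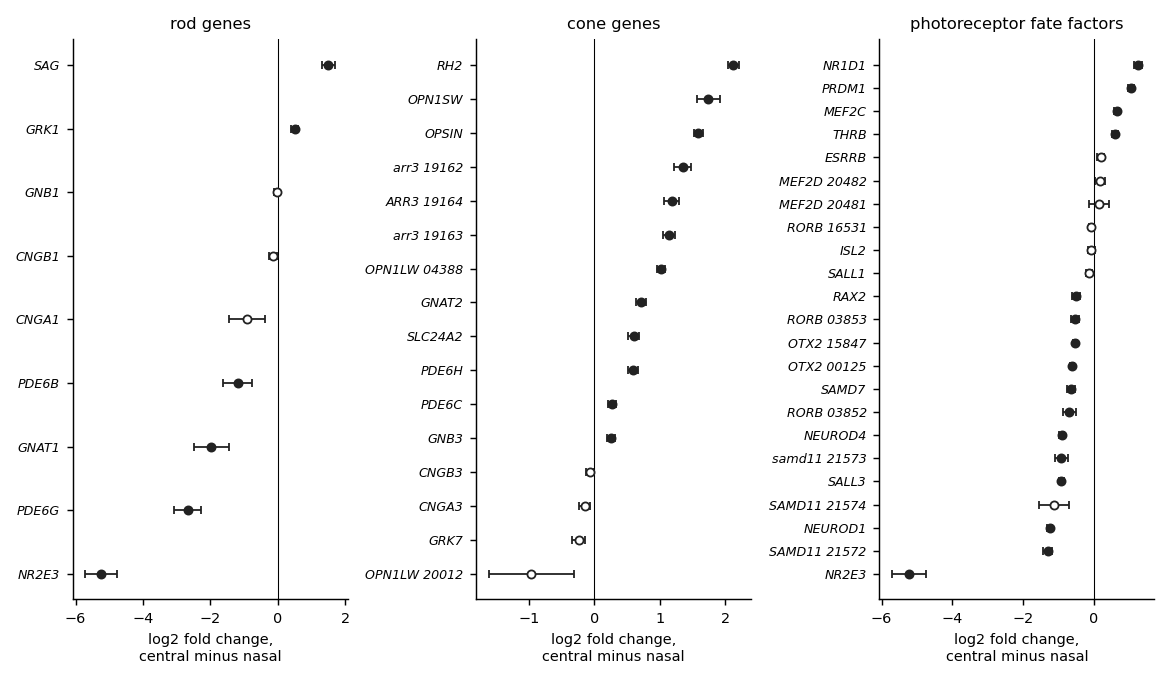
Points are log2 fold changes, central minus nasal, on the x axis, with bars of 1 SE, for tested members of the rod list, the cone list and the photoreceptor fate list, filled where called (not every rod gene is shown), and models that share a symbol carry the end of their identifier. Cone genes lie at or above 0 where called, most rod genes lie below 0 with SAG and GRK1 as exceptions, and NR2E3 is lowest in both panels that hold it.

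The visual cycle, which rebuilds the light-sensitive retinoid, had 6 of 18 members higher and 4 lower (55.6% called). LRAT, which esterifies retinol, averaged 35.9 ± 20.3 CPM in central and 5.09 ± 2.37 CPM in nasal libraries (log2 fold change 2.81, and 2.66 without central replicate 4, its highest library). RPE65, the isomerase of pigment epithelium, rose by 0.96 and RLBP1, a carrier in pigment epithelium and Müller glia, by 1.26, while RDH8, a photoreceptor dehydrogenase with 5 models, was lower on the models ANOSAT004478 and ANOSAT004479 (log2 fold changes -0.41 and -0.43) and higher on the model ANOSAT004785 (0.67, named after its values were seen). Pigment epithelium markers as a list were split, 6 of 27 higher and 5 lower (40.7% called), with a summed level of 3494 to 4951 CPM in central and 3834 to 4159 CPM in nasal libraries, and melanin genes had 4 of 23 higher and 3 lower (30.4% called). Without central replicate 4 the lower counts were 8 for pigment epithelium and 7 for melanin genes. RPE65 is a defining marker of this tissue, and the other defining markers did not rise with it. BEST1 was at 10.6 to 13.7 CPM in central and 14.8 to 22.2 CPM in nasal libraries. TYR overlapped, at 27.1 to 79.0 CPM in central and 25.9 to 39.3 CPM in nasal libraries. The part of pigment epithelium in the rise of RPE65 and LRAT was not tested.

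Among the lists of inner retinal neurons, only the ganglion cell list was called mostly higher in central. Ganglion cells send the output of the retina to the brain, and 18 of 36 members of their list were higher and 2 lower (55.6% called). SLC17A6 (ANOSAT000766), which loads glutamate into vesicles, was read at 325, 290, 274, 281 and 287 CPM in central libraries, against 167, 157, 147, 156 and 146 CPM in nasal libraries, a narrow spread in both (log2 fold change 0.91, SE 0.0597, edgeR adjusted p = 1.9e-08). The nicotinic receptor subunit CHRNB3 rose by 1.03 and the adhesion molecule ALCAM by 0.94. ISL1, a factor of ganglion, amacrine and bipolar cells, fell by 0.80 (160 ± 12.2 CPM in central, 278 ± 16.3 CPM in nasal libraries).

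Amacrine and horizontal cell genes were divided, with 7 of 33 higher and 9 lower (48.5% called). Those that rose include the GABA-making enzyme GAD2 (log2 fold change 0.94) and the calcium buffer CALB1 (1.53). Transcription factors of these cells, LHX9 and LHX1, fell by 0.91 and 0.84. Bipolar cell genes had 3 of 26 higher and 8 lower (42.3% called), and among the factors LHX4 fell by 0.78, LHX3 by 0.69 and VSX1 by 0.56, while LRIT3, a synaptic protein of ON bipolar input, rose by 0.38.

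Neuropeptide genes were among the lists with the most members called higher, 16 of 24, and none lower (66.7% called, median log2 fold change 0.49), and the alternatives called 16 or 17 of them higher and at most 1 lower. SST (ANOSAT006953), the gene of somatostatin, was read at 89.0, 129, 88.4, 72.7 and 54.5 CPM in central libraries, against 1.61, 0.543, 1.63, 0.900 and 0.834 CPM in nasal libraries. The lowest central value lay far above the highest nasal value, where the ranking of the largest rises required groups without overlap. The log2 fold change was 6.30 (SE 0.245, edgeR adjusted p = 1.1e-10). A second model with this symbol, SST (ANOSAT021487), was low, at 0.298 ± 0.214 CPM in central and 1.34 ± 1.03 CPM in nasal libraries, and not called (edgeR adjusted p = 0.13). TAC1, which encodes substance P, averaged 298 ± 51.4 CPM in central and 84.1 ± 8.09 CPM in nasal libraries, and the processing enzyme PCSK1 103 ± 15.9 CPM in central and 31.7 ± 7.2 CPM in nasal libraries. The vesicle protein CHGA averaged 1259 ± 148 CPM in central and 957 ± 124 CPM in nasal libraries. The receptor gene GPR151 was read at 5.05 ± 3.58 CPM in central and 0.144 ± 0.129 CPM in nasal libraries (log2 fold change 4.96, SE 0.758). Its central values were 8.85, 8.09, 5.27, 0.385 and 2.64 CPM. The low value in central replicate 4 lay close to the highest nasal value, 0.318 CPM.

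Transmitter receptors and release machinery leaned the same way. Of 73 receptor genes for glutamate, GABA and glycine 24 were higher and 2 lower (35.6% called), and without the block 14 were higher. GRIN2C, an NMDA receptor subunit, rose by 0.94, and the GABA receptor subunits GABRA4 and GABRG1 by 1.10 and 1.12. One kainate receptor model, GRIK2 (ANOSAT021633), was among the largest falls of all, at 7.24, 4.04, 4.05, 8.27 and 6.98 CPM in central and 44.7, 39.2, 42.0, 47.6 and 80.5 CPM in nasal libraries (log2 fold change -3.07, SE 0.167, edgeR adjusted p = 3e-09). The other GRIK2 models, chosen after their values were seen, ran the other way, with log2 fold changes of 0.70 (ANOSAT002247) and 0.61 (ANOSAT002248). Synaptic vesicle genes had 25 of 71 higher and 4 lower (40.8% called), with SYT5 (0.97), SYNPR (0.72) and VAMP2 (0.53) among those that rose and CPLX4, a complexin of photoreceptor and bipolar terminals, lower by 0.38.

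Potassium channel genes were higher in 23 of 100 cases and lower in 10 (33.0% called). KCNJ15 (ANOSAT008574), an inward rectifier, was read at 11.2, 12.1, 10.8, 23.8 and 15.6 CPM in central libraries, against 0.966, 0.543, 0.739, 0.318 and 0.913 CPM in nasal libraries (log2 fold change 4.35, SE 0.318, edgeR adjusted p = 6.9e-08). KCNJ2 and KCNF1 rose by 1.68 and 1.44, and KCNMB4 fell by 0.88. Calcium, sodium and TRP channel genes were called at the background rate, 27.9%, but with 20 of 86 higher and 4 lower, among them SCN2A, which rose by 0.63.

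Müller glia, the radial glia that span the retina, had 13 of 25 list members higher and 4 lower in central (68.0% called, median log2 fold change 0.43). CA2 (ANOSAT011243), a carbonic anhydrase, was read at 4900, 7706, 4791, 5859 and 5453 CPM in central libraries, against 1066, 1101, 1001, 742 and 714 CPM in nasal libraries. GFAP (ANOSAT014511), an intermediate filament of astrocytes and of reactive glia, was at 529, 627, 518, 507 and 578 CPM in central and 153, 135, 135, 120 and 69.7 CPM in nasal libraries. The log2 fold changes were 2.63 (SE 0.116, edgeR adjusted p = 3.8e-10) and 2.21 (SE 0.133, edgeR adjusted p = 9.1e-09), with a gap between the groups in both genes. The glutamate transporter SLC1A3, a common marker of these glia, ran the other way, at 1053 ± 259 CPM in central and 1434 ± 108 CPM in nasal libraries (log2 fold change -0.47, edgeR adjusted p = 0.0017), and ABCA8 fell by 1.93.

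Genes of the optic nerve and the oligodendrocyte lineage did not move as a set, with 5 of 18 higher and 3 lower (44.4% called). PAX2, PMP2 and GFAP rose. The defining markers SOX10 and MBP overlapped between the regions, SOX10 at 13.8 to 34.5 CPM in central and 16.8 to 27.6 CPM in nasal libraries and MBP at 61.0 to 82.0 CPM in central and 51.2 to 93.4 CPM in nasal libraries. The summed level of the list, most of which comes from few genes, was 1678 to 2030 CPM in central and 1149 to 1432 CPM in nasal libraries. Whether the optic nerve head lay within the central cut was not tested.

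Energy metabolism gave a clear contrast between lists. Glycolysis breaks sugar down to pyruvate and lactate and is heavily used by photoreceptors and Müller glia, and hypoxia raises its enzymes through the factor HIF1A. Of 45 tested genes of glycolysis and the hypoxia response 32 were higher in central and 3 lower (77.8% called, median log2 fold change 0.71), 18 of them more than 2-fold higher, and their summed level was 20363 to 24561 CPM in central and 10088 to 11256 CPM in nasal libraries. HK2 (ANOSAT017843), a hexokinase that takes the first step, was read at 101, 104, 77.0, 62.2 and 48.3 CPM in central libraries, against 5.69, 2.30, 1.77, 2.28 and 2.62 CPM in nasal libraries. HIF1A (ANOSAT000161) was at 1681, 1452, 1478, 1092 and 1048 CPM in central and 280, 210, 244, 250 and 219 CPM in nasal libraries, and LDHA (ANOSAT000895), which makes lactate, at 1879, 2547, 1780, 2432 and 2078 CPM in central and 439, 560, 515, 606 and 627 CPM in nasal libraries. In each of these 3 gene models the groups were far apart, although for HK2 the ranking of the largest rises required groups without overlap. Their log2 fold changes were 4.75 (SE 0.249, edgeR adjusted p = 2.1e-09), 2.48 (SE 0.0952, edgeR adjusted p = 1e-10) and 1.96 (SE 0.0794, edgeR adjusted p = 1.5e-10).

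ENO2, an enolase of neurons, rose by 1.94 (2585 ± 210 CPM in central, 673 ± 65.0 CPM in nasal libraries). The members that fell were DDIT4, a stress-induced inhibitor of growth signalling that hypoxia also raises, by 0.53, the lipoprotein receptor VLDLR by 0.36, and the glycolytic regulator PFKFB4 (log2 fold change -0.40). A further 10 members were not called, against the 32 called higher. Of these 10, NDRG1 averaged 1900 ± 244 CPM in central and 2089 ± 191 CPM in nasal libraries (edgeR adjusted p = 0.16). PDK1, BNIP3, EGLN1, EGLN3, PFKM, ANKRD37 and both models of ADM, named after their values were seen, were also not called. A second model of HK2 (ANOSAT005650), also named after its values were seen, was low, at 0.469 CPM in central and 0.898 CPM in nasal libraries. It was not called either (log2 fold change -1.17, edgeR adjusted p = 0.26). Of the members called higher, STC2, P4HA1, EPAS1 and BNIP3L, also named after their values were seen, rose by 1.17, 0.94, 0.69 and 0.53. The list thus held members that rose and members that did not, and a part of hypoxia in these differences was not tested.

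Subunits of the mitochondrial respiratory chain moved down by small amounts. Of 68 tested 32 were lower and 1 higher in central (48.5% called, median log2 fold change -0.22), and none of them by more than 2-fold. Their summed levels overlapped, at 5446 to 7550 CPM in central and 6721 to 8142 CPM in nasal libraries. The sum was lower in central in every pair of libraries with the same replicate number. The ATP synthase subunit gene ATP5F1A averaged 409 ± 55.5 CPM in central and 541 ± 23.1 CPM in nasal libraries (log2 fold change -0.41, SE 0.0607, edgeR adjusted p = 9.3e-05), and ATP5F1B fell by 0.30. The 1 that was higher, NDUFB1 (log2 fold change 0.39, edgeR adjusted p = 0.046), was not called under 12 of 19 alternatives.

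Genes of cytoplasmic ribosomal proteins behaved alike, with 39 of 96 lower and 0 higher (40.6% called, median log2 fold change -0.26). Their summed levels overlapped too, at 24238 to 34894 CPM in central and 29347 to 40871 CPM in nasal libraries. This sum was lower in central in 4 pairs of the same replicate number and higher in the pair of replicate 4. RPL4, the member with the most reads, averaged 978 ± 185 CPM in central and 1180 ± 161 CPM in nasal libraries, and RPS19 and RPL12 fell by 0.65 and 0.54. These 2 lists depended on the pairing more than others. Without the block 8 respiratory chain genes and 6 ribosomal protein genes were called lower, with none called higher. Over all gene models 1263 of 15910 were called lower in that fit. The 6 of 96 ribosomal protein genes fell short of this share, and the 8 of 68 respiratory chain genes exceeded it. The medians of both lists kept their sign under all alternatives, from -0.28 to -0.19 for the respiratory chain and from -0.33 to -0.20 for ribosomal proteins.

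**Figure D4:**
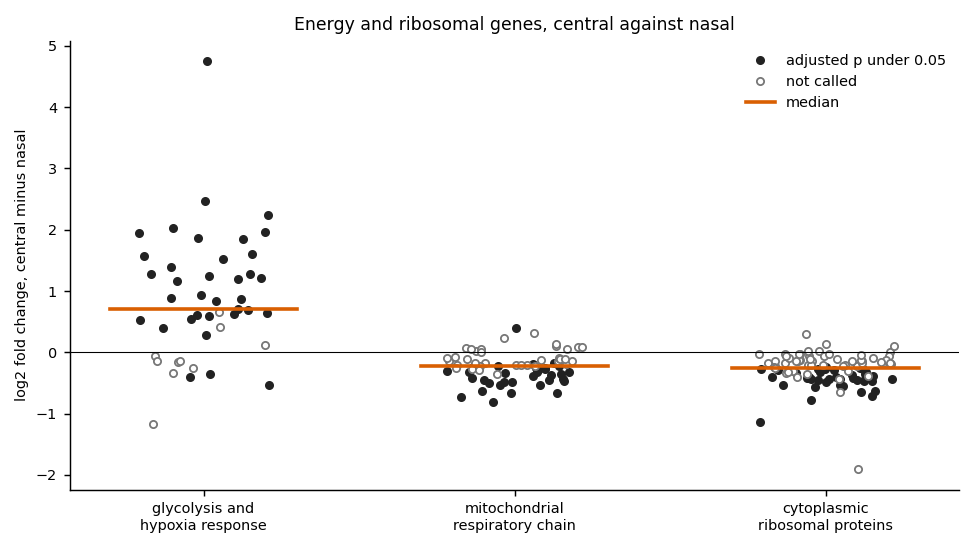
Each point is a gene model's log2 fold change, central minus nasal, on the y axis, filled where called, for 45 genes of glycolysis and the hypoxia response, 68 of the respiratory chain and 96 ribosomal proteins, with the median as a bar at 0.71, -0.22 and -0.26. Most glycolysis genes lie above 0 with HK2 (ANOSAT017843) at the top, and most genes of the other lists lie in a narrow band at or below 0.

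Cadherins and protocadherins hold cells and synapses together, and 29 of 81 were lower and 7 higher (44.4% called). FAT4 (ANOSAT013108), a giant cadherin of planar polarity, was read at 57.8, 57.5, 75.6, 64.7 and 73.3 CPM in central libraries, against 143, 199, 173, 207 and 224 CPM in nasal libraries (log2 fold change -1.52, SE 0.110, edgeR adjusted p = 5.9e-08). DCHS2, of the dachsous family that binds FAT cadherins, fell by 0.71, CELSR2 (ANOSAT009987) by 0.63 and PCDHGC5 by 0.52, while CDH13 (ANOSAT018349) rose by 0.92.

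Semaphorins, plexins, slits and related guidance genes were called in both directions, 18 of 70 higher and 19 lower (52.9% called). SEMA3F (ANOSAT005720), a repellent that acts through NRP2, was read at 58.5, 63.9, 87.5, 80.8 and 104 CPM in central libraries, against 220, 269, 289, 290 and 349 CPM in nasal libraries (log2 fold change -1.85, SE 0.101, edgeR adjusted p = 3e-09). Its receptor NRP2 rose, as given above, so ligand and receptor differed in opposite directions. The plexin genes PLXNB3 and PLXNA2 fell by 1.53 and 0.66 and SLIT2 (ANOSAT012496) by 0.37, and SEMA7A (ANOSAT020780) and SEMA3D (ANOSAT012652) rose by 0.92 and 0.99. Ephrins and EPH receptors together gave 5 of 27 higher and 4 lower (33.3% called), EPHA3, EPHA4, EPHA6 and EPHA7 making up the first and EPHB2, EPHB3 and EFNB2 the second.

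Matrix genes included large single changes in a list near the background. Integrins, laminins and matrix glycoproteins had 22 of 115 higher and 17 lower (33.9% called). The laminin chain LAMA5 rose by 1.24 and THBS1 by 1.12, both highest in central replicate 4, while tenascin-C was lower on the TNC models ANOSAT020215 and ANOSAT020216 (log2 fold changes -0.90 and -0.93) and RELN (ANOSAT012741), the guidance protein reelin, fell by 0.71 (1236 ± 96.0 CPM in central, 2026 ± 145 CPM in nasal libraries). The collagen IV chains of basement membrane COL4A5 and COL4A6 rose, by 1.49 and by 1.88 (ANOSAT019374) and 3.15 (ANOSAT019373). Over all collagens 14 of 54 were higher and 2 lower (29.6% called), and without central replicate 4 the lower count was 8.

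CCN3 (ANOSAT011373), a matricellular protein of the CCN family, was read at 25.1, 9.01, 31.1, 57.6 and 23.7 CPM in central libraries, against 1.88, 1.42, 1.72, 1.16 and 1.07 CPM in nasal libraries (log2 fold change 4.15, SE 0.348, edgeR adjusted p = 2.8e-07, and 3.77 without central replicate 4). CCN1 (ANOSAT010317), a target of mechanical signalling, rose by 0.88. The family had 4 of 7 members higher (57.1% called), and 2 without central replicate 4. Cilium genes were called less often than the background share, 18 of 137 higher and 10 lower (20.4% called), a difference that was not tested. IFT57, of the transport machinery, rose by 1.01, and CEP290, of the transition zone, fell by 0.51. Immediate early and stress genes, which respond within minutes to handling, had 5 of 22 higher and 1 lower (27.3% called), with 3 higher without central replicate 4, among them JUNB and HSPA8 (ANOSAT015797), which rose by 1.17 and 1.14.

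Markers of other tissues were measured in the same libraries. The lens list differed most, with a summed level of 242 to 351 CPM in central and 28.8 to 48.9 CPM in nasal libraries, and 5 of 13 tested members higher and 0 lower (38.5% called). That level came largely from ASL, at 68.4, 92.8, 70.3, 64.9 and 153 CPM in central and 0.859, 1.0, 0.837, 0.794 and 0.318 CPM in nasal libraries, and from the small heat shock protein CRYAB (ANOSAT017970), at 149 ± 17.2 CPM in central and 10.5 ± 3.31 CPM in nasal libraries. BFSP2, a lens filament protein, averaged 10.2 ± 3.47 CPM in central and 2.06 ± 0.699 CPM in nasal libraries. The defining lens markers stayed near 0. MIP was at 0 to 2.88 CPM in central and 0 to 0.246 CPM in nasal libraries and at 0 in 4 of the 10 libraries, BFSP1 was at 0 to 0.148 CPM in central and 0 to 0.0835 CPM in nasal libraries and at 0 in 6 libraries, and LIM2 did not pass 0.779 CPM in any library.

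Cartilage, mesenchyme and vessel markers were raised mainly in central replicate 4. Periocular mesenchyme markers summed to 501 to 3627 CPM in central and 462 to 1375 CPM in nasal libraries, with 3627 CPM in central replicate 4 and at most 1268 CPM in the other central libraries. Of 25 tested 6 were higher and 1 lower (28.0% called), and 4 and 3 without that library. The defining markers COL1A1, LUM and DCN overlapped between the regions. Medians were 292 CPM in central and 446 CPM in nasal libraries for COL1A1, 4.66 and 4.63 CPM for LUM, and 68.2 and 41.2 CPM for DCN. DCN was called higher (log2 fold change 1.18, edgeR adjusted p = 0.010), with its top value, 276 CPM, in central replicate 4. COL3A1 (ANOSAT001563), a fibrillar collagen of mesenchyme, was read at 112, 124, 126, 497 and 129 CPM in central libraries, against 39.7, 109, 62.2, 74.0 and 53.4 CPM in nasal libraries, and its log2 fold change was 1.30, or 1.05 without central replicate 4. Cartilage and sclera markers summed to 209 to 765 CPM in central and 303 to 429 CPM in nasal libraries, with 3 of 17 higher and 1 lower (23.5% called), and 1 and 3 without that library. COL9A2 rose by 1.41 but was not called without central replicate 4, and COL2A1 (log2 fold change -0.51, edgeR adjusted p = 0.046) was not called under 11 of 19 alternatives. PECAM1, a defining endothelial marker, averaged 9.61 ± 4.43 CPM in central and 3.40 ± 1.32 CPM in nasal libraries. Its log2 fold change was 1.18 without central replicate 4. The other defining endothelial markers, CDH5 and TIE1, overlapped between the regions. CDH5 was at 5.23 to 35.3 CPM in central and 3.18 to 8.81 CPM in nasal libraries. TIE1 was at 7.05 to 10.6 CPM in central and 6.09 to 14.99 CPM in nasal libraries.

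Few blood and immune cell genes were called. None of 9 red blood cell genes was called, and their summed level overlapped, at 779 to 1282 CPM in central and 488 to 1528 CPM in nasal libraries. Of 9 macrophage and microglia genes the defining marker CSF1R was called higher (64.7 ± 27.2 CPM in central, 36.9 ± 7.81 CPM in nasal libraries). The other defining markers, PTPRC and C1QA, were at 0 in 5 and 3 of the libraries and at most 1.08 CPM. The summed level of this list overlapped, at 133 to 203 CPM in central and 120 to 154 CPM in nasal libraries. It was higher in central in every pair of the same replicate number. Skeletal muscle genes had 2 of 22 higher and 2 lower (18.2% called), at sums of 67.8 to 84.0 CPM in central and 59.1 to 100 CPM in nasal libraries. Among pigment genes MLPH (ANOSAT001744), which moves melanosomes, averaged 137 ± 9.61 CPM in central and 27.8 ± 5.26 CPM in nasal libraries, and the cystine transporter SLC7A11 (ANOSAT013089) 0.783 ± 0.256 CPM in central and 4.54 ± 1.66 CPM in nasal libraries. Ciliary margin genes had 4 of 14 higher and 4 lower, with ZIC1 and ZIC2 among the lower (57.1% called), and their summed levels overlapped at 1152 to 1344 CPM in central and 1064 to 1293 CPM in nasal libraries. The part of any of these tissues in the differences above was not tested.

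**Figure D5:**
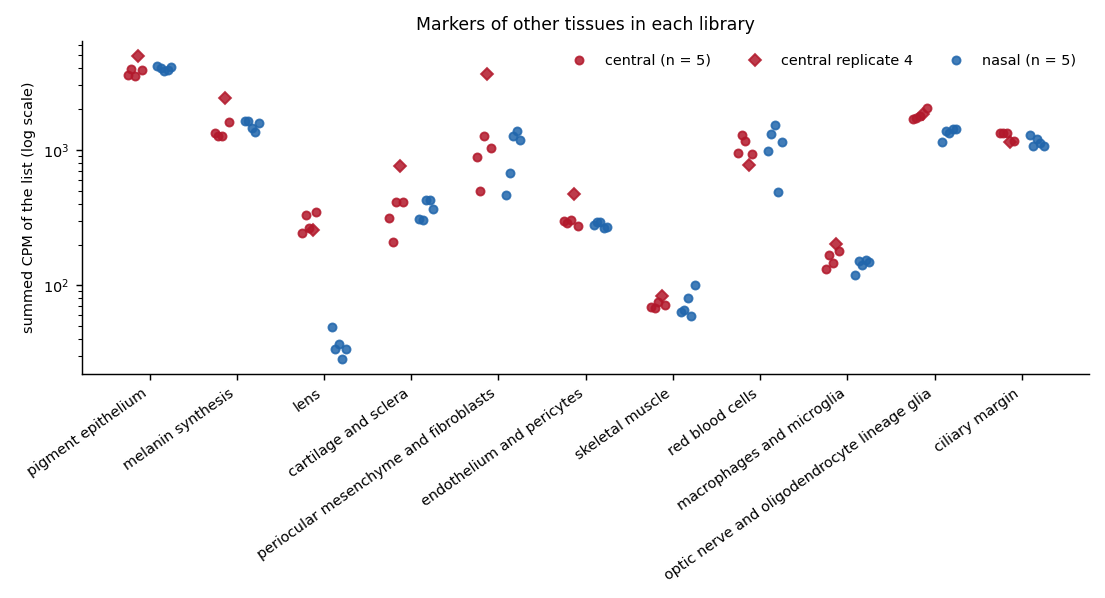
Each point is the summed CPM of a marker list in 1 library on a log y axis, central in red left of nasal in blue, with central replicate 4 as a diamond. The lens list is higher in every central library, the mesenchyme, endothelium and cartilage lists are highest in central replicate 4, and the blood, muscle and ciliary margin lists overlap between the regions.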

How the data were processed

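RNA from central, nasal and temporal posterior globe was sequenced by the authors as 15 libraries, 5 per region, with a stranded mRNA kit. The deposited values are raw read counts per gene model. The submitters' processing notes name HISAT2 2.2.1 and featureCounts; for the genome build and the use of strand in counting, neither the labels nor the study's methods give a statement, so overlapping and antisense genes may share reads. Gene symbols are the authors' own, and 7454 gene models carry a symbol that stands on more than 1 model, between which reads may be split.

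Counts were scaled by TMM and tested with edgeR 4.0.16 (quasi-likelihood, robust) over all 15 libraries with region and replicate number as terms, after a filter (filterByExpr, minimum count 10), with Benjamini-Hochberg adjustment and a threshold of 0.05 on the contrast central minus nasal. Fold changes are fitted values. The replicate number was used as a block because libraries of the same number deviated together: correlations of deviations from the region means were 0.193 to 0.410 in the 5 central and nasal pairs, against -0.234 to 0.256 in the 20 pairs of different number. The labels do not say what libraries of one number share. On simulated counts for this contrast, 95% of 200 changed gene models were recovered, with 9 false calls among 15774. The planted changes were of 2-fold or more, and all gene models had the same dispersion. Libraries of one number shared an effect in the simulation, as the model assumes. The simulation therefore checks the fit under its own assumptions and does not measure the error rate of the calls in these data.

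The gene lists, 48 in all, were written with earlier results of these data known, as were the members compared. Genes named are the 12 largest rises and falls without overlap between the regions and with a mean of at least 5 CPM in the higher region, in each list up to 3 called members per direction with the smallest adjusted p, members of the retinoic acid, patterning and fovea-associated lists, and each list's member with the highest mean CPM. Others are said to be named after their values were seen. Alternatives were fits without the block, with central and nasal libraries alone, other scalings and filters, DESeq2 1.42.0, limma 3.58.1 (voom with quality weights), and leaving out libraries. The compared libraries held between 15712525 and 27035312 counted reads each, which sets the precision of low counts. No library was left out of the main fit. Some genes that the rule selects are not reported here. Nucleotide sequences were not used here.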

Additional observations from a re-analysis of the deposited data

Results flagged for a closer look

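Of 516 groups of 5 libraries searched for a value far from the other 4, 31 held one, where chance flags about 1 in 20 groups. Central replicate 4 held 16 of them, 13 high and 3 low, and the other libraries 15.

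Central replicate 4 listed 14994 gene models with reads (17603 to 18617 in the other central libraries), and its summed markers were 3627 CPM for periocular mesenchyme (501 to 1268 CPM in the others) and 469 CPM for endothelium and pericytes (272 to 303 CPM). Matrix and vessel genes were high in it: COL3A1 at 497 CPM (112 to 129 CPM in the others), LAMA5 at 63.6 CPM (37.6 to 39.4 CPM), THBS1 at 252 CPM (99.5 to 117 CPM), CCN1 at 71.8 CPM (25.7 to 37.5 CPM) and PECAM1 at 17.3 CPM (6.23 to 9.18 CPM). So were LRAT at 71.8 CPM (23.2 to 32.6 CPM), epha3 (ANOSAT008720) at 15.1 CPM (6.40 to 8.66 CPM), AHRR at 2.24 CPM (0.853 to 1.22 CPM), INHBA at 1.92 CPM (0.334 to 0.684 CPM), HEY2 at 16.3 CPM (7.49 to 9.23 CPM) and the clock gene ARNTL at 185 CPM (139 to 146 CPM). LFNG was low in it, at 1.41 CPM (7.63 to 9.72 CPM), as was EPHA5, at 49.1 CPM (71.0 to 79.9 CPM).

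In other central libraries, NR2E3 was high in replicate 5 at 1.32 CPM (0 to 0.333 CPM in the others) and ALCAM low in replicate 2 at 47.1 CPM (62.0 to 68.0 CPM). In nasal replicate 1, MAB21L1 stood at 52.4 CPM (32.7 to 37.0 CPM in the other nasal libraries), SOX2 at 72.9 CPM (45.4 to 51.6 CPM), HK2 at 5.69 CPM (1.77 to 2.62 CPM) BSG at 769 CPM (427 to 520 CPM) and RDH8 (ANOSAT004785) at 32.7 CPM (23.0 to 25.4 CPM), and ARNTL was low at 198 CPM (221 to 227 CPM). Nasal replicate 2 was high for PECAM1 at 5.68 CPM (2.52 to 3.41 CPM). Nasal replicate 3 was high for EPHA7 at 30.2 CPM (23.1 to 23.9 CPM) and THRA at 208 CPM (184 to 188 CPM), and low for NFIL3 (ANOSAT004638) at 113 CPM (129 to 135 CPM). Nasal replicate 5 was high for GRIK2 (ANOSAT021633) at 80.5 CPM (39.2 to 47.6 CPM) and low for SOX8 at 10.2 CPM (15.4 to 16.7 CPM) and SCN2A at 256 CPM (351 to 383 CPM).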

How the results depend on the processing

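The count of gene models called depended on the replicate block. Without the replicate block 2925 gene models were called, 1263 of them lower in central, and in the fit of the central and nasal libraries alone 1428 were lower. Leaving out 1 library at a time gave 3550 to 5095 calls, 1900 to 2584 higher and 1650 to 2511 lower, with the most calls without central replicate 4. DESeq2 called 4962 gene models and limma-voom with quality weights 6041. Of the 4438 calls, 2922 (65.8%) were also made without the block and 4070 (91.7%) without central replicate 4, and no gene model called in both had turned its direction under any alternative. Of 230 named gene models that were called, 210 were called under every alternative that tests them, 16 lost the call without the block, 10 in the fit of central and nasal libraries alone and 4 without central replicate 4. The cause of the losses was not tested. The log2 fold changes of 4 models that were not called changed sign. With limma-voom they were 0.084 for EPHA5 and 0.053 for IMPG2 (ANOSAT017175), and with no filter that of EPHB1 (ANOSAT007350) was -0.0055. Leaving out libraries gave -0.14 to 0.031 for EPHA5, -0.050 to 0.056 for EPHB1, -0.11 to 0.042 for KDR (ANOSAT012859) and -0.14 to 0.037 for IMPG2 (ANOSAT017175). Over all lists, 177 of 2014 counts moved by more than 1.5 times and 38 of 1007 medians by more than their spread over pairs. Gene models at a few reads per library, such as FGF8, MGP and DIO2 in nasal libraries, have fold changes that depth limits.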

Other observations

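These 3 lists and their named members were chosen after the values were seen, so their counts are a description. Clock genes, which keep daily rhythm through transcription feedback, had 15 of 28 members higher and 4 lower in central (67.9% called, median log2 fold change 0.45). Output and repressor genes were higher: NR1D2 (ANOSAT014905) averaged 47.9 ± 5.29 CPM in central and 10.8 ± 2.41 CPM in nasal libraries, DBP 204 ± 48.6 CPM in central and 79.5 ± 18.4 CPM in nasal libraries, and BHLHE40 23.7 ± 6.19 CPM in central and 7.49 ± 1.24 CPM in nasal libraries. ARNTL, the activator of the loop, was lower, at 151 ± 19.2 CPM in central and 219 ± 11.8 CPM in nasal libraries. The neighbouring models of NFIL3 moved in opposite directions, with log2 fold changes of 1.52 (ANOSAT004639) and -0.98 (ANOSAT004638). The order and time of dissection were not analysed here.

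Transporters of lactate, glucose and bicarbonate and carbonic anhydrases had 18 of 50 members higher and 3 lower (42.0% called), with a summed level of 10473 to 13735 CPM in central and 3677 to 4562 CPM in nasal libraries, a sum that includes CA2. The lactate carriers SLC16A1 and SLC16A3 averaged 505 ± 107 and 403 ± 44.3 CPM in central libraries, against 122 ± 12.7 and 113 ± 21.0 CPM in nasal libraries. The glucose carriers SLC2A3 and SLC2A1 rose by 1.28 and 0.84 on the log2 scale, and BSG, the chaperone of lactate carriers, by 1.07.

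Splicing factors of the SR and hnRNP families had 0 of 33 members higher and 21 lower (63.6% called, median log2 fold change -0.32), at a summed level of 10812 to 12554 CPM in central and 13516 to 14705 CPM in nasal libraries. HNRNPL averaged 250 ± 24.8 CPM in central and 457 ± 42.7 CPM in nasal libraries, and SRSF3 347 ± 38.3 CPM in central and 531 ± 51.8 CPM in nasal libraries.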
